A study of Mus musculus with 12 samples.

Results

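The proteasome genes of mouse liver are described here: 39 of the 53796 genes in the deposited expression table, taken by symbol as every Psma, Psmb, Psmc or Psmd gene with a number. They comprise 7 genes of the 20S alpha ring, 7 constitutive genes of the 20S beta ring, 3 immunoproteasome genes (Psmb8, Psmb9 and Psmb10), 6 ATPase and 11 non-ATPase genes of the 19S cap, 3 genes of 19S assembly chaperones (Psmd5, Psmd9 and Psmd10), the testis alpha subunit gene Psma8 and the thymoproteasome gene Psmb11. RNA sequencing of liver gave 12 libraries, 3 in each of 4 groups. Sham is wild-type liver with a sham label. WT (wild type), RIPK1_D138N (mice with the D138N allele of the kinase RIPK1) and TNFR12_KO (a line labelled as lacking both TNF receptors) carry no sham label. They are read here as livers after ischemia, because the title of the series names livers with and without it. D138N is known to remove the kinase activity of RIPK1, which acts downstream of TNF receptors. The labels name no promoter, Cre driver, cell restriction, age or time of collection. Mutant sham livers were not analysed here, so differences that the genotypes have without ischemia and differences in how they respond to it cannot be told apart. Whether the repeats come from separate animals is not in the labels, so every p-value here measures the spread among these libraries, which may be technical.

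The proteasome degrades proteins tagged with ubiquitin. Its core is a barrel of alpha rings, which gate the entry, around beta rings, which hold the cutting sites of Psmb5, Psmb6 and Psmb7. The 19S cap binds ubiquitin chains, removes them and feeds the unfolded protein into the barrel with its ATPases. Under interferon, cells make Psmb8, Psmb9 and Psmb10, which take the places of Psmb5, Psmb6 and Psmb7 in newly built immunoproteasomes and favour peptides suited to MHC class I. In liver, immune cells hold more immunoproteasome than resting hepatocytes. When proteasomes are short of capacity, the transcription factor NRF1 (Nfe2l1) raises most proteasome genes together through antioxidant response elements.

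Values are FPKM, fragment counts scaled to transcript length and to sequencing depth, so levels can be compared between genes. The FPKM of all genes summed to between 288934 and 303514 in WT and to between 441296 and 750501 in the other libraries. The labelled tissue was checked on 8 hepatocyte markers, whose summed FPKM was 35263 to 40512 in Sham and 6160.5 to 7727 in WT, with 21855 to 23516 in RIPK1_D138N and 21516 to 25392 in TNFR12_KO. Among these, Trf is listed at 0 in every WT library. Tnfrsf1a, the TNFR1 gene, stood at 15.3 to 21.9 FPKM in the libraries labelled TNFR12_KO, at 18.9 to 21.0 in RIPK1_D138N and at 32.3 to 38.1 in WT, and Tnfrsf1b at 3.96 to 9.31 in TNFR12_KO, so a value per gene does not check that deletion. Xist, the X-inactivation transcript, read 20.1 and 23.4 FPKM in RIPK1_D138N replicates 2 and 3, against at most 0.0824 in the other 10 libraries. Ddx3y, a Y chromosome gene, read 0.0176 and 0 FPKM in these 2 libraries, against 11.97 to 37.4 in the other 10. By these genes the 2 libraries read as female and the other 10 as male. Every comparison with RIPK1_D138N thus mixes genotype with sex, and the part of sex was not tested. Differences were tested with limma on log2(FPKM + 1) across 11728 genes, with an adjusted p under 0.05 as the threshold for calling a gene higher or lower. Scaling matters here: dividing libraries by median-of-ratios size factors moved the median fold change of all tested genes in WT vs Sham from -0.36 to -0.03, and in RIPK1_D138N vs WT from 0.11 to 0.004.

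Of the 39 genes, 37 passed the filter of at least 1 FPKM in at least 3 libraries. Psma8, a subunit of meiotic germ cells, read 0.0562 to 0.521 FPKM, and Psmb11, the thymic catalytic subunit, was listed at 0 in 11 libraries and at 0.0206 in 1 Sham library. Foxn1, which defines thymic epithelium, was at 0 throughout. Of the 3 genes on that list only Epcam, a gene shared by many epithelia, passed the filter, at up to 2.46 FPKM, and it was higher in both mutants than in WT (1.27 and 0.75). The 4 germ cell markers together reached at most 0.271 FPKM. The 37 genes were abundant. Their median stood at the 91.0 to 92.2 percentile of tested genes within each Sham library, at 90.6 to 92.6 in WT, at 86.0 to 87.9 in RIPK1_D138N and at 86.3 to 88.8 in TNFR12_KO. A percentile within a library does not depend on how libraries are scaled. The median rank of the 37 genes was similar in WT and Sham and lower in every mutant library. The alpha, ATPase and non-ATPase medians were also lower in every mutant library. The beta ranges overlapped (93.68 to 95.12 in RIPK1_D138N and 93.71 to 94.77 in TNFR12_KO, against 94.14 to 94.99 in WT). The immunoproteasome median was higher in every mutant library (82.36 to 85) than in WT (65.33 to 78.01) or Sham (76.35 to 81.4). Chaperone medians of the mutants overlapped those of WT and Sham.

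**Figure D1:**
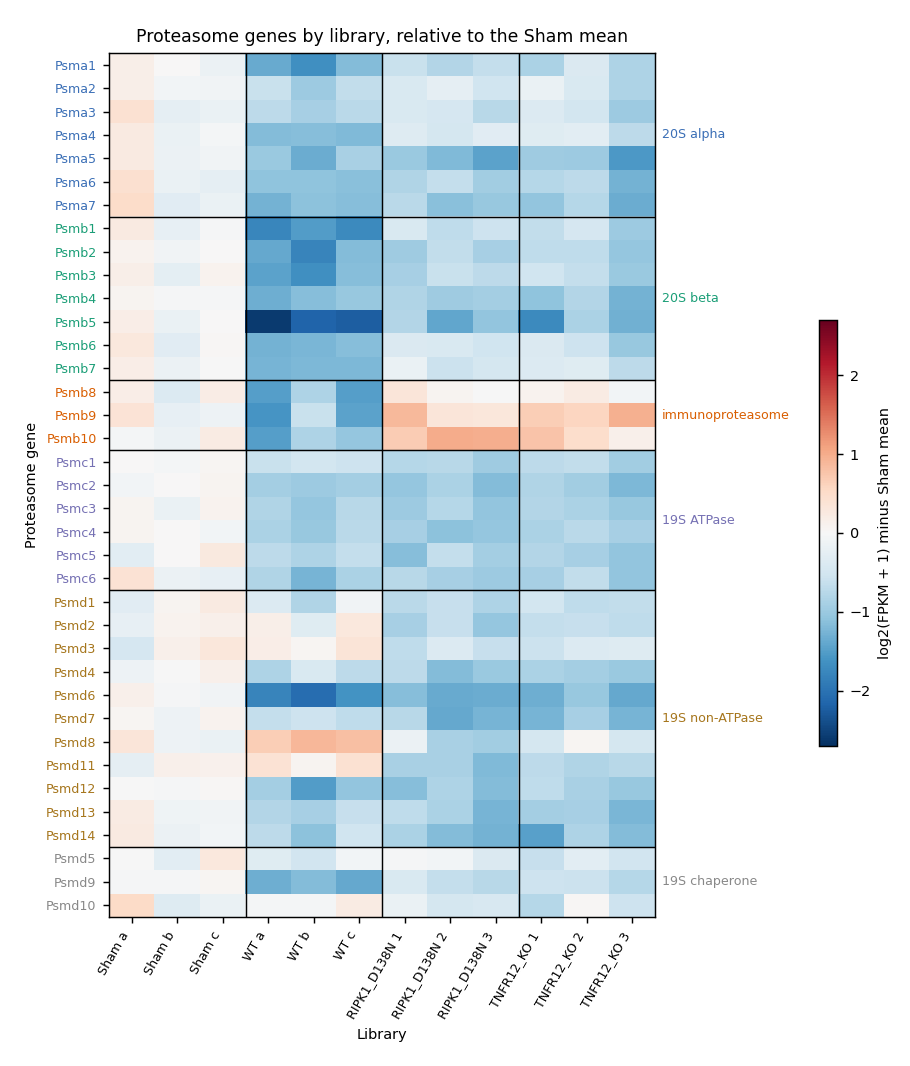
Level of each of the 37 tested proteasome genes (rows, by subunit class) in each of the 12 libraries (columns), as log2(FPKM + 1) minus the Sham mean of that gene. On the deposited scale the WT columns are blue for most rows, Psmd8 is the clear exception there, and Psmb9 and Psmb10 are above the Sham mean in all mutant columns while most other rows are below it. The letters of Sham and WT libraries are arbitrary.

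WT liver differed from Sham in most proteasome genes on the deposited scale. There 30 of 37 genes were lower and 1 was higher, with a median log2 fold change of -0.98, against 41.9% lower and 16.4% higher among all tested genes and their median of -0.36. After median-of-ratios scaling 22 were lower and 4 higher with a median of -0.54 (all genes 27.2% lower and 27.0% higher), and after quantile normalization 6 were lower and 7 higher with a median of 0.08 (all genes 27.0% lower and 25.0% higher). The fall of the family as a whole thus depended on the scaling. The order of its constitutive classes did not: the beta median was the lowest, followed by the alpha, ATPase and non-ATPase medians, on the deposited scale, after both other scalings and after centring by transcript length.

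Among the constitutive classes the beta ring had the lowest median. All 7 genes were lower on the deposited scale and after median-of-ratios scaling (medians -1.41 and -0.97), while quantile normalization left 2 lower and a median of -0.23. Psmb5, the chymotrypsin-like subunit, read 273, 212 and 244 FPKM in the Sham libraries and 39.4, 53.0 and 50.8 in WT. Every WT library lay far below every Sham library (log2 fold change -2.33, SE 0.233, adjusted p = 4.03e-06), and the fall held under quantile normalization (-1.14, adjusted p = 0.000603). Psmb1, a non-catalytic beta subunit, read 206, 149 and 170.5 FPKM in Sham and 50.2, 60.8 and 51.9 in WT (-1.66, SE 0.185, adjusted p = 9.3e-06). Psmb6, the caspase-like subunit, read 244, 162 and 203 FPKM in Sham and 81.7, 84.2 and 90.03 in WT. Psmb7, the trypsin-like subunit, read 162, 129 and 142 FPKM in Sham and 59.5, 61.2 and 61.2 in WT. Both pairs of groups stood apart, with folds of -1.22 and -1.23 on the deposited scale, yet quantile normalization gave 0.04 and -0.04. Psmb5 has a near-identical copy, Gm3375 (98.9% identity over 796 aligned bases), which moved the other way, from 17.4, 12.7 and 17.4 FPKM in Sham to 28.8, 37.2 and 33.7 in WT. With both added together the log2 fold change of Psmb5 was -1.67.

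On the deposited scale all 7 genes of the alpha ring were lower. Their log2 fold changes ran from -1.40 to -0.75 (median -1.10). After median-of-ratios scaling 5 were lower, and after quantile normalization none was called (1 at unadjusted p under 0.05) and the median was 0.04. The 6 ATPase genes Psmc1 to Psmc6, the motor of the cap, were also lower together on the deposited scale, from -0.98 to -0.55, but 1 of them was higher after quantile normalization.

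The non-ATPase genes of the cap did not move together. Of 11, 6 were lower, 1 was higher and 4 were not called on the deposited scale (median -0.63), and quantile normalization reversed that median to 0.42 with 6 higher and 1 lower. Psmd8, a lid subunit also known as RPN12, read 128, 92.3 and 90.5 FPKM in Sham and 164, 191 and 182 in WT. It was higher in each WT library than in each Sham library (0.80, SE 0.235, adjusted p = 0.0108) and stayed higher after median-of-ratios scaling (1.24) and quantile normalization (1.86). It was the most abundant proteasome gene in all 3 WT libraries, and in none of the other 9. Psmd6, another lid subunit, read 89.4, 79.4 and 76.9 FPKM in Sham and 22.9, 18.9 and 25.9 in WT, and it was lower under every scaling tried (-1.82, SE 0.164, adjusted p = 1.79e-06, and -0.95 after quantile normalization). Lid genes therefore held both the rise and, after Psmb5, the deepest fall of the family on the deposited scale. With Gm3375 added to Psmb5, as given above, the fall of Psmd6 was the deeper. The base scaffold genes Psmd1 and Psmd2 and the lid genes Psmd3 and Psmd11 were not called, with log2 fold changes of -0.44, 0.04, 0.20 and 0.29, although Psmd2, Psmd3 and Psmd11 were higher in WT after median-of-ratios scaling (0.48, 0.64 and 0.72). Among the chaperones Psmd9 was lower (-1.30), and Psmd5 and Psmd10 were not called.

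**Figure D2:**
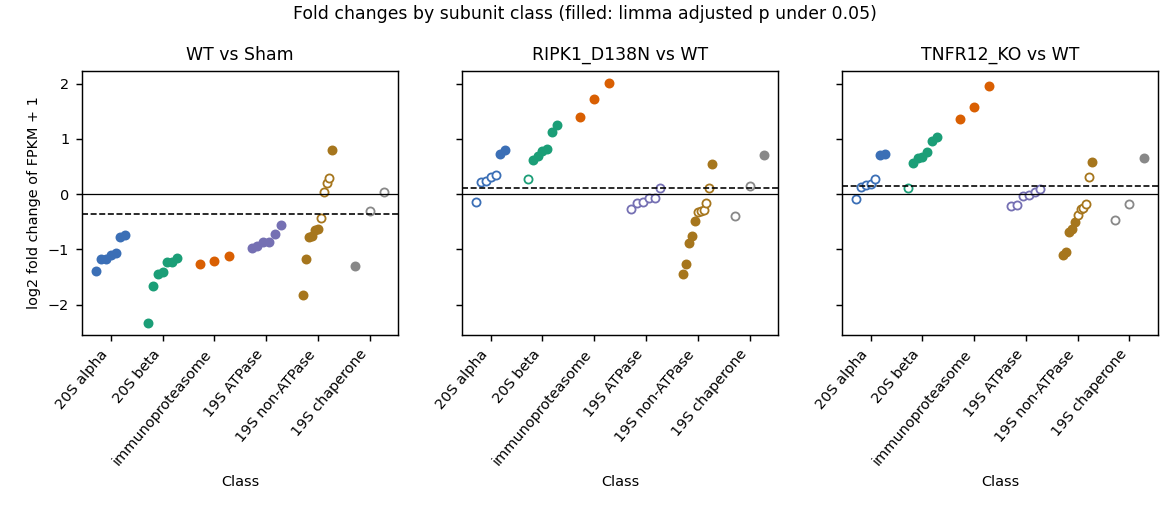
Log2 fold change of FPKM + 1 for each tested proteasome gene (points, sorted within class) in WT vs Sham, RIPK1_D138N vs WT and TNFR12_KO vs WT, with filled points for an adjusted p under 0.05 and a dashed line at the median of all tested genes. On the deposited scale the beta and immunoproteasome medians are the lowest in WT vs Sham and the highest in both mutant panels, and of all classes only the immunoproteasome keeps the sign of its median under quantile normalization in all 3 panels.

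The make-up of the proteasome transcript pool needs no scaling between libraries, since each class is a share of the summed FPKM of the 37 genes in the same library. Non-ATPase genes made up 32.5 to 32.7% of the pool in WT, 18.2 to 21.6% in Sham, 16.4 to 18.7% in RIPK1_D138N and 18.5 to 21.2% in TNFR12_KO. Constitutive beta genes made up 25.4 to 27.0% in WT, 37.1 to 38.7% in Sham, 37.7 to 40.1% in RIPK1_D138N and 35.9 to 37.7% in TNFR12_KO. In both classes the WT libraries stood apart from the other 9 libraries. The alpha share varied less, from 22.2 to 23.4% in WT and from 22.6 to 28.2% elsewhere, and these ranges overlapped. The immunoproteasome share was 1.86 to 2.29% in Sham and 1.30 to 2.25% in WT, with 4.83 to 5.36% in RIPK1_D138N and 4.16 to 4.93% in TNFR12_KO, so every mutant library lay above every wild-type library. The whole pool took 0.537 to 0.615% of all FPKM in WT, 0.429 to 0.509% in Sham and 0.368 to 0.415% in the mutants.

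**Figure D3:**
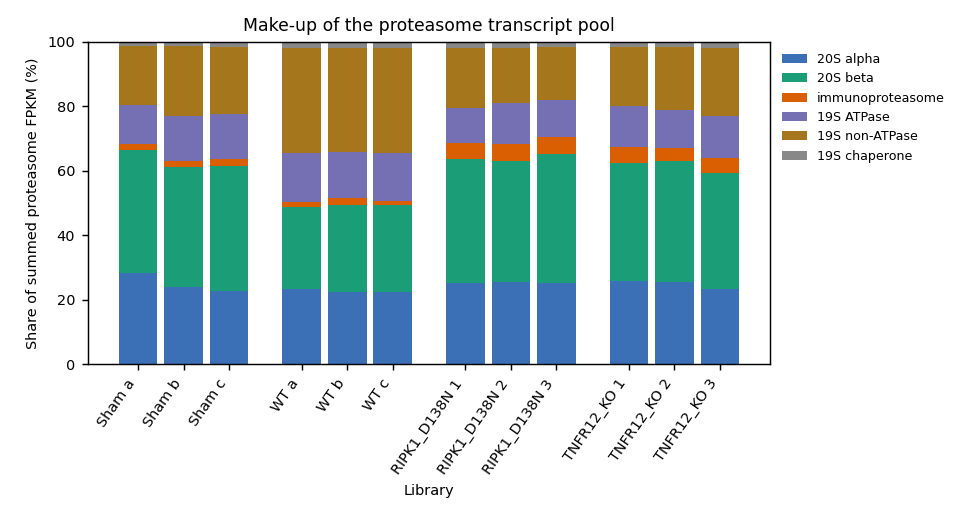
Share of each subunit class (stacked bars, %) in the summed FPKM of the 37 tested proteasome genes, for each of the 12 libraries. WT bars have a larger non-ATPase part (32.5 to 32.7%) and a smaller beta part (25.4 to 27.0%) than the others, and the orange immunoproteasome part is 4.16% or more only in mutant bars.

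Against WT, the immunoproteasome had the highest median of the 6 classes in both mutants under all 4 scalings (1.71 and 1.58 as deposited). All 3 were higher in both mutants on the deposited scale, after median-of-ratios scaling, after centring by transcript length and after quantile normalization. Psmb10 (chromosome 8, 105935735 to 105938444), the counterpart of Psmb7, read 29.3, 27.0 and 35.7 FPKM in Sham and 10.3, 16.6 and 14.4 in WT, with 49.9, 62.0 and 61.2 in RIPK1_D138N and 52.4, 43.0 and 33.6 in TNFR12_KO. Each mutant library was above each WT library, by 4.20-fold in mean FPKM in RIPK1_D138N (log2 fold change 2.01, SE 0.21, adjusted p = 7.8e-06) and by 3.13-fold in TNFR12_KO (1.58, adjusted p = 5.68e-05). Psmb9 (chromosome 17, 34181987 to 34187764), the counterpart of Psmb6, read 14.1, 8.90 and 9.50 FPKM in Sham and 2.84, 6.72 and 3.29 in WT, with 20.3, 13.6 and 13.4 in RIPK1_D138N and 17.5, 16.4 and 21.6 in TNFR12_KO. It was the least abundant of the 37 genes in each WT library, and higher than there in all 6 mutant libraries (1.71, adjusted p = 0.000179, and 1.95, adjusted p = 7.55e-05). Psmb8 (chromosome 17, 34197721 to 34201454), the counterpart of Psmb5, read 28.3, 18.9 and 28.5 FPKM in Sham and 8.15, 13.4 and 8.21 in WT, with 31.4, 26.1 and 24.5 in RIPK1_D138N and 26.4, 29.2 and 23.6 in TNFR12_KO. Its mutant levels overlapped those of Sham and stood above WT (1.40, adjusted p = 0.00016, and 1.35, adjusted p = 0.000244). Against Sham, WT was lower in all 3 genes, by -1.27 for Psmb8, -1.21 for Psmb9 and -1.12 for Psmb10, of which Psmb8 and Psmb9 were also lower after quantile normalization (-0.72 and -0.91) and Psmb10 was not called there (-0.48, adjusted p = 0.0736). Psmb9 shares 212 exonic bases with Tap1 on the opposite strand, and the sources used here do not say whether counting used strand. Tap1 stood at 7.74 FPKM in WT and 4.73 in RIPK1_D138N (mean, n = 3), lower in that mutant, opposite to Psmb9.

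Markers of other cells were measured beside these genes. Their counts of calls stand against the shares of all tested genes. In WT vs Sham these were 16.4% higher and 41.9% lower. They were 29.8 and 21.9% in RIPK1_D138N vs WT, and 29.6 and 17.5% in TNFR12_KO vs WT. The summed FPKM of 10 Kupffer cell and macrophage markers was 76.9 to 118 in Sham and 72.8 to 102 in WT, with 22.4 to 27.4 in RIPK1_D138N and 13.9 to 18.5 in TNFR12_KO, and none of its 8 tested genes was higher in a mutant than in WT (4 lower in RIPK1_D138N, 6 in TNFR12_KO). In WT, Cd68 alone gave 41.7 to 60.8 FPKM of that sum. WT vs Sham had 5 of the 8 lower and only Cd68 higher (median -1.15), for example Clec4f, a Kupffer cell lectin gene, at 4.43 FPKM in WT and 22.4 in Sham (mean, n = 3). The summed FPKM of 10 lymphocyte markers was 1.01 to 2.95 in WT, 1.46 to 3.52 in Sham, 3.69 to 5.52 in RIPK1_D138N and 1.53 to 5.66 in TNFR12_KO, with only Nkg7 above the filter (higher in RIPK1_D138N than in WT by 0.98, adjusted p = 0.00937, and not called in TNFR12_KO). The sum of 8 neutrophil markers ran from 4.71 to 261 in WT, from 4.18 to 185 in RIPK1_D138N and from 12.1 to 158 in TNFR12_KO, and 4 tested genes of it gave no call in either mutant. The sum of 6 endothelial markers ran from 19.5 to 23.9, from 14.1 to 82.5 and from 8.94 to 41.9 in the same order, with 2 genes higher and 2 lower in RIPK1_D138N and 1 higher and 2 lower in TNFR12_KO. In WT vs Sham 2 of the 6 were higher and 2 lower. Clec4g, a lectin of liver sinusoidal endothelium, was lower in WT than in Sham (-3.38, adjusted p = 0.000772) and higher in both mutants than in WT (3.68 and 2.53). Kdr, a VEGF receptor gene, was lower in WT than in Sham (-1.27) and higher in RIPK1_D138N than in WT (1.65). Pecam1 and Cdh5, junction genes of endothelium, went the other way. They were higher in WT than in Sham (1.22 and 1.57) and lower in both mutants than in WT (-0.68 and -1.58 for Pecam1, -0.88 and -1.01 for Cdh5). No marker of these lists was at 0 in every library. The hepatocyte sum given above was higher in every mutant library than in every WT library. Trf, listed at 0 in WT, gave 5920 to 8422 FPKM of it in the mutants. Of the 8 hepatocyte genes 7 were higher in each mutant than in WT. The other, Fgb, was lower in both (-1.22 and -0.85). The part of these cell types in the immunoproteasome result was not tested, and in whole liver fewer cells of a type and less RNA per cell cannot be told apart.

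Within each catalytic pair the ratio of the interferon-inducible to the constitutive gene was compared by an exact permutation test (two-sided), in which 3 against 3 libraries cannot give p below 0.1 and the smallest value adjusted over 18 comparisons was 0.164. Psmb10 made up 17.6 ± 2.41% of its pair in Sham and 18.3 ± 3.34% in WT, with 34.9 ± 5.93% in RIPK1_D138N and 29.0 ± 2.68% in TNFR12_KO (mean ± SD, n = 3 in each). Psmb9 made up 5.05 ± 0.52% of its pair in Sham and 4.76 ± 2.28% in WT, with 9.60 ± 1.83% in RIPK1_D138N and 13.03 ± 4.31% in TNFR12_KO. In both pairs every mutant library lay above every WT and Sham library, and WT overlapped Sham. Against WT the log2 ratio rose by 1.19 and 0.81 for Psmb10 to Psmb7 and by 0.93 and 1.38 for Psmb9 to Psmb6, in RIPK1_D138N and TNFR12_KO (exact permutation p = 0.1 for each, the smallest possible). The third pair behaved otherwise. Psmb8 made up 9.34 ± 1.16% of its pair in Sham and 17.1 ± 3.16% in WT, with 19.4 ± 2.49% in RIPK1_D138N and 21.4 ± 4.68% in TNFR12_KO, so that WT stood apart from Sham (difference in log2 ratio 1.06, exact p = 0.1) and overlapped both mutants (0.16 and 0.32, exact p = 0.5 each). That order changed when the near-identical copy Gm3375 was added to Psmb5, an alternative chosen after the data were seen. The share of Psmb8 was then 8.82 ± 1.06% in Sham and 10.8 ± 2.06% in WT, with 18.5 ± 2.40% in RIPK1_D138N and 19.3 ± 2.60% in TNFR12_KO, and WT overlapped Sham (0.39, exact p = 0.2) and stood apart from both mutants (0.82 and 0.90, exact p = 0.1).

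**Figure D4:**
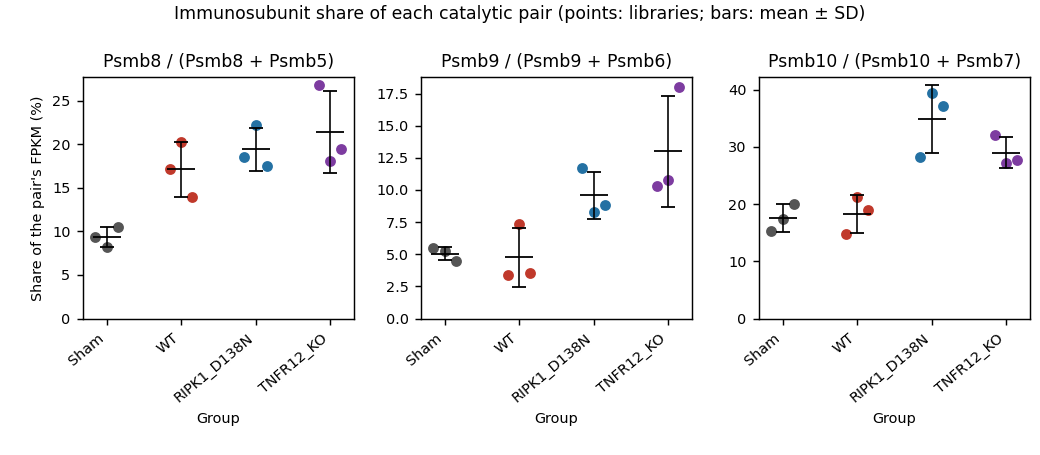
Share of the immunoproteasome gene in the summed FPKM of its catalytic pair (%), for Psmb8 with Psmb5, Psmb9 with Psmb6 and Psmb10 with Psmb7, with libraries as points and bars for the mean ± SD of 3 libraries. The Psmb9 and Psmb10 shares are higher in all 6 mutant libraries than in all 6 wild-type libraries, while the Psmb8 share of WT lies between 13.9 and 20.2% and overlaps the mutants unless Gm3375 is added to Psmb5.

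The sequence before the start of Psmb5, Psmb6 and Psmb10 is shown because these genes enter the ratios within the catalytic pairs. The RefSeq windows (GRCm38.p6, 5′ to 3′ on the strand of the gene) cover the 250 bases before the start. Motifs were searched in whole windows, and bases inside exons annotated by GENCODE M21 are left out of the sequences printed. Psmb5 lies on the minus strand at chr14:54618023-54618245, Psmb6 on the plus strand at chr11:70525107-70525356, and Psmb10 on the minus strand at chr8:105938445-105938642. Capitals mark a match to TGACNNNGC, the core of the antioxidant response element.
Psmb5: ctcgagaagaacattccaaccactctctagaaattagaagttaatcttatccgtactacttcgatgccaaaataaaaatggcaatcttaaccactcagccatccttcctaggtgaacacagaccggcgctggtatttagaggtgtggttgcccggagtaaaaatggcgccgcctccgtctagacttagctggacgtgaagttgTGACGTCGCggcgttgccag
Psmb6: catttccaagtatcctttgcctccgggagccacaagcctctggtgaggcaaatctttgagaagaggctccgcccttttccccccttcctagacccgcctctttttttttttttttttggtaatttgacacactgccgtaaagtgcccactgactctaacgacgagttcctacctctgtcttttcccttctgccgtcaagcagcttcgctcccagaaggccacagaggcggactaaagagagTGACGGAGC
Psmb10: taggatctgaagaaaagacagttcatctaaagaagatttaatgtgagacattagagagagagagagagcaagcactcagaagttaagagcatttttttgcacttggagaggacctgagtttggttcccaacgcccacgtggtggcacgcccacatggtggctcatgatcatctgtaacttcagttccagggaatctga
In Psmb5 the match TGACGTCGC begins 47 bases before the start, and in Psmb6 the match TGACGGAGC begins 9 bases before it. Windows were given for 32 of the 39 genes, and 5 of these hold the core (Psmb5, Psmb6, Psmc6, Psmd9 and Psmd12), against 10.2% of 32851 windows of all genes searched on both strands. Its letters are in none of the 3 immunoproteasome windows, but those of Psmb8 and Psmb9 lie wholly inside annotated exons (250 of 250 bases each), and 198 bases of the Psmb10 window lie outside them. Psmb8 holds TTCCCAGAA, a match to the gamma-activated site TTCNNNGAA, 97 bases before its RefSeq start and within that exonic sequence (1 of 32 genes, 7.02% of all windows). The interferon-stimulated response element, searched as GAAA and GAAA 2 bases apart, matched in Psmb3, Psmd4 and Psmd9 (2.98% of all windows), and the kappa B site, searched as GGG and TTTCC 2 bases apart, in none of the 32 (1.41%). TTCNNNGAA reads the same on both strands, and no match of these motifs overlapped another in the sequences shown.

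In RIPK1_D138N, 13 of 37 proteasome genes were higher and 5 lower than in WT on the deposited scale, against 29.8% higher and 21.9% lower among all genes. After median-of-ratios scaling 13 were higher and 6 lower (26.6 and 27.3% of all genes), and after quantile normalization 4 were higher and 20 lower (25.8 and 28.0%). In TNFR12_KO 13 were also higher and 5 lower (29.6 and 17.5% of all genes), 11 and 9 after median-of-ratios scaling (24.8 and 25.3%) and 4 and 21 after quantile normalization (24.4 and 26.4%). The medians of the 37 genes, 0.15 and 0.11, lay near those of all genes, 0.11 and 0.14, on the deposited scale. Under quantile normalization they were -0.61 and -0.69, against -0.02 for all genes in both comparisons. Both comparisons share the 3 WT libraries.

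Constitutive beta genes were higher in 6 of 7 cases in each mutant on the deposited scale (medians 0.78 and 0.68), but under quantile normalization none was higher, 1 was lower in each and the medians were -0.12 and -0.15. Psmb5 read 138.3, 91.5 and 115 FPKM in RIPK1_D138N and 72.3, 133 and 98.0 in TNFR12_KO. All 6 values were above the WT values and below the Sham values given earlier (1.24, SE 0.233, adjusted p = 0.000683, and 1.03, adjusted p = 0.00278, against WT). With Gm3375 added, which was lower in both mutants than in WT, the differences were 0.58 and 0.45. Psmb6 read 153, 151 and 138.04 FPKM in RIPK1_D138N and 153, 136 and 98.7 in TNFR12_KO (0.78, adjusted p = 0.00489, and 0.57, adjusted p = 0.0296), and Psmb7 127, 95.2 and 104 and then 111, 115 and 87.7 (0.82, adjusted p = 0.00139, and 0.77, adjusted p = 0.00246). For both genes the groups stood apart from WT, and quantile normalization turned the sign (-0.19 and -0.36 for Psmb6, -0.12 and -0.15 for Psmb7). The Psmb6 call in TNFR12_KO did not pass after median-of-ratios scaling (0.36, adjusted p = 0.151) or without any 1 of the WT libraries or TNFR12_KO replicate 1 or 2 (adjusted p from 0.052 to 0.118). Psmb1 followed with 1.12 and 0.97.

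The alpha ring gave 2 higher genes in each mutant, Psma1 and Psma4, on the deposited scale, and the other 5 were not called. Under quantile normalization no alpha gene was higher and 4 were lower in each mutant (medians -0.61 and -0.70), and Psma1 (-0.03 and -0.02) and Psma4 (-0.14 and -0.16) were not called. None of the 6 ATPase genes was called in either comparison by limma on the deposited scale (none at unadjusted p under 0.05), although 1 was lower in each mutant after median-of-ratios scaling and 5 after quantile normalization. The non-ATPase genes gave 1 higher gene, Psmd6 (0.54 and 0.58), and 5 lower ones in each mutant on the deposited scale. Psmd6 was not called after quantile normalization (-0.02 and 0.02) or after centring by length (0.25 and 0.35), nor in TNFR12_KO after median-of-ratios scaling (0.38, adjusted p = 0.0561). The non-ATPase median was the lowest of the 6 classes under all 4 scalings in both mutants (-0.32 and -0.38 as deposited). Psmd8, the gene that rose in WT, read 91.3, 55.7 and 52.6 FPKM in RIPK1_D138N and 73.2, 106 and 73.5 in TNFR12_KO, below all WT values (-1.45, SE 0.235, adjusted p = 0.000223, and -1.10, adjusted p = 0.00201). Psmd11, a lid subunit linked to high proteasome activity in stem cells, read 26.4, 34.9 and 34.1 FPKM in Sham and 41.5, 33.3 and 42.1 in WT, with 16.9, 16.9 and 13.3 in RIPK1_D138N and 18.9, 17.6 and 18.4 in TNFR12_KO. The mutants stood below both wild-type groups (-1.26, adjusted p = 4.58e-05, and -1.04, adjusted p = 0.000231, against WT). Psmd2, the base scaffold subunit RPN1, read 44.6, 56.1 and 57.4 FPKM in Sham and 58.7, 41.5 and 64.5 in WT, with 27.8, 33.6 and 25.1 in RIPK1_D138N and 33.0, 33.7 and 32.4 in TNFR12_KO (-0.89, adjusted p = 0.00157, and -0.69, adjusted p = 0.00868, against WT). Wild-type values of Psmd2 overlapped between WT and Sham, and all mutant values were lower than both. Psmd3 and Psmd7 were the other lower genes. Without WT library c or without TNFR12_KO replicate 1, 3 genes in place of 5 were lower in TNFR12_KO.

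The mutants did not differ detectably from each other in these genes, and few genes of any kind were called. None of 37 was called in RIPK1_D138N vs TNFR12_KO by limma, near the shares of all genes, 0.350% higher and 0.580% lower. None had an unadjusted p under 0.05 on the deposited scale, where 1444 of 11728 tested genes did. After median-of-ratios scaling 2 of the 37 did, and after quantile normalization 1. The largest differences were 0.43 for Psmb10 (SE 0.21, adjusted p = 0.438) and -0.36 for Psmd8 (SE 0.235, adjusted p = 0.611). The values of Psmd11 did not overlap between the mutants. The share of all tested genes that stood apart in this way is not given here, so nothing is read from that separation.

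Against Sham both mutants had less constitutive proteasome transcript on the deposited scale. In RIPK1_D138N 26 genes were lower and 1 was higher, against 22.7% lower and 7.51% higher among all genes (17 and 1 after median-of-ratios scaling, where 22.5% of all genes were called in either direction). In TNFR12_KO 27 were lower and none was higher (2 immunoproteasome genes at unadjusted p under 0.05), against 18.1 and 7.46% (19 and 2 after median-of-ratios scaling, where 20.2% of all genes were called in either direction). The medians were -0.83 and -0.76, against -0.22 and -0.18 for all genes, and they stayed negative after quantile normalization (-0.53 and -0.46). All 6 ATPase genes were lower in each mutant, with 10 of 11 non-ATPase genes in RIPK1_D138N and 9 in TNFR12_KO. Psmd6 stood at 36.2, 31.1 and 31.9 FPKM in RIPK1_D138N and at 32.0, 39.9 and 30.9 in TNFR12_KO, below every Sham library (-1.28, adjusted p = 0.000182, and -1.24, adjusted p = 0.000244). Psma5, an alpha ring subunit, read 103, 77.1 and 81.4 FPKM in Sham and 42.6, 37.3 and 30.9 in RIPK1_D138N (-1.22, adjusted p = 0.00123). Psmd7, a lid partner of the deubiquitinase Psmd14, read 69.1, 60.4 and 71.9 FPKM in Sham and 39.3, 25.1 and 27.5 in RIPK1_D138N (-1.13, adjusted p = 0.000895). Psmd14 itself read 52.0, 38.8 and 41.3 FPKM in Sham and 15.3, 24.0 and 18.7 in TNFR12_KO (-1.16, adjusted p = 0.00196). In these genes no mutant value reached the Sham range. Psmb5 remained below Sham too (-1.09, adjusted p = 0.00459, and -1.29, adjusted p = 0.0019), and Psmb6 in TNFR12_KO (-0.65, adjusted p = 0.028), though not after either other scaling (adjusted p = 0.161 and 0.212).

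Psmb10 was the exception among the 37, higher than Sham in RIPK1_D138N (0.89, SE 0.21, adjusted p = 0.00753) under each scaling tried. Without replicates 2 and 3 of RIPK1_D138N, the libraries with Xist, 1 mutant library was left. Whether the call would hold without them cannot be told from 1 library, so only effect sizes are given. In that library Psmb10 read 49.9 FPKM, above the highest Sham value, with a log2 fold change of 0.70 against Sham. Those of Psmb5, Psma5 and Psmd7 were -0.80, -1.01 and -0.75.

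Genes that work with the proteasome were read from lists, whose counts stand against the shares of all tested genes: 16.4% higher and 41.9% lower in WT vs Sham, 29.8 and 21.9% in RIPK1_D138N vs WT, and 29.6 and 17.5% in TNFR12_KO vs WT. Psme1 and Psme2, which encode the interferon-inducible PA28 activator that caps immunoproteasomes, followed the immunoproteasome genes. Psme1 read 62.9, 50.2 and 63.3 FPKM in Sham and 23.5, 28.0 and 25.0 in WT, with 70.8, 87.7 and 82.4 in RIPK1_D138N and 92.7, 78.0 and 62.0 in TNFR12_KO (1.62, adjusted p = 1.21e-05, and 1.55, adjusted p = 1.9e-05, against WT). The WT range of Psme1 lay below all other groups. Of the 5 activator and inhibitor genes 4 were lower in WT than in Sham, with Psme2 the deepest (-1.36), and 3 were higher in each mutant than in WT. Of 5 genes for assembly of the 20S core 4 were lower in WT than in Sham, and 3 and 1 were higher in RIPK1_D138N and TNFR12_KO than in WT. Of 6 further genes of the cap 2 were lower in WT than in Sham and 2 were higher and 1 lower in each mutant than in WT, led by the small subunit gene Sem1 (1.02 and 0.99) and the ubiquitin receptor gene Adrm1 (-0.58 and -0.57).

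The NRF1 pathway list was mixed, and like the lists after it is read against the same shares of all genes. WT had 4 of its 8 genes higher and 2 lower against Sham, and RIPK1_D138N had 1 higher and 4 lower against WT (1 and 3 in TNFR12_KO). The genes that rose included the small MAF genes Maff, Mafk and Mafg, partners of NRF1 and NRF2. Nfe2l2, the NRF2 gene, averaged 28.7 FPKM in WT against 13.1 in Sham. Ddi2 and Ngly1 went the other way, at 9.13 and 5.99 FPKM in WT against 21.4 and 12.8 in Sham (means, n = 3). Mean FPKM of Maff (± SD, n = 3) was 57.7 ± 7.07 in WT against 1.40 ± 0.35 in Sham, 16.9 ± 9.71 in RIPK1_D138N and 24.6 ± 5.85 in TNFR12_KO, and WT differed from each of the other groups (4.62, adjusted p = 1.75e-07, against Sham). Nfe2l1 itself was not called (-0.36 in WT vs Sham). Among 10 genes of p97 cofactors and ubiquitin shuttles Zfand2a, an arsenite- and heat-inducible partner of the proteasome, averaged 21.2 ± 3.76 FPKM in WT against 3.95 ± 0.918 in Sham, 2.76 ± 1.70 in RIPK1_D138N and 4.32 ± 1.03 in TNFR12_KO. It was the largest rise of its list in WT vs Sham (2.16, adjusted p = 2.93e-05) and the largest fall in both mutants against WT (-2.64 and -2.06). That list gave 4 higher and 3 lower genes in WT vs Sham (5 and 0 after median-of-ratios scaling), and no higher gene with 6 and 5 lower ones in RIPK1_D138N and TNFR12_KO vs WT. Of 5 ubiquitin genes 3 were lower in WT than in Sham on the deposited scale (none after median-of-ratios scaling).

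The interferon and class I list of 16 genes was mixed, with 6 higher and 4 lower in WT vs Sham, 4 and 5 in RIPK1_D138N vs WT and 5 and 2 in TNFR12_KO vs WT, beside 16.4 and 41.9%, 29.8 and 21.9%, and 29.6 and 17.5% of all genes. The counts in the mutants lie near those shares. B2m, the light chain of MHC class I, had the largest rise in both mutants and averaged 433 ± 115 FPKM in WT against 1492 ± 288 in Sham, 1918 ± 241 in RIPK1_D138N and 2240.4 ± 133 in TNFR12_KO (2.17, adjusted p = 7.59e-06, and 2.40, adjusted p = 4.4e-06, against WT). Irf2 had the largest called fall in WT vs Sham (-1.82), with 8.97 ± 0.819 FPKM in WT against 34.9 ± 9.56 in Sham, 18.7 ± 1.69 in RIPK1_D138N and 27.5 ± 3.98 in TNFR12_KO. The largest called rise there was that of Ifngr1 (1.16). Against WT the largest called falls were those of Ifngr2 in RIPK1_D138N (-1.24) and Ifngr1 in TNFR12_KO (-1.22). Irf1, the interferon-response factor that drives immunoproteasome genes, went another way than B2m and Irf2, with 12.9 ± 1.06 FPKM in WT against 7.85 ± 1.76 in Sham, 10.2 ± 3.36 in RIPK1_D138N and 13.5 ± 2.49 in TNFR12_KO. Irf1 was higher in WT than in Sham (0.67, adjusted p = 0.0203) and was not called in either mutant against WT. Nlrc5, the class I transactivator, was not called in either mutant against WT (-0.01 and 0.33). In RIPK1_D138N vs TNFR12_KO no gene on these lists was called by limma, and the NRF1 list had the most at unadjusted p under 0.05, with 3.

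Transcript length moved with these fold changes. Across all tested genes the Spearman correlation of the log2 fold change with the longest annotated transcript was 0.309 in WT vs Sham and -0.304 and -0.268 in RIPK1_D138N and TNFR12_KO vs WT, and across the 37 proteasome genes 0.512, -0.341 and -0.337 (genes share libraries and are not replicates, so no p is given). Alpha and beta genes have short transcripts, with medians of 1239 and 1183 bases, against 1851 in ATPase, 1989 in non-ATPase and 1907 in immunoproteasome genes and 2893 in all tested genes. After each library was centred within length deciles, WT vs Sham gave 26 lower genes and 1 higher (38.8 and 16.0% of all genes), with a beta median of -1.05 and a non-ATPase median of -0.41, and each mutant kept all 3 immunoproteasome genes higher than WT. The beta medians against WT shrank to 0.40 and 0.45.

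**Figure D5:**
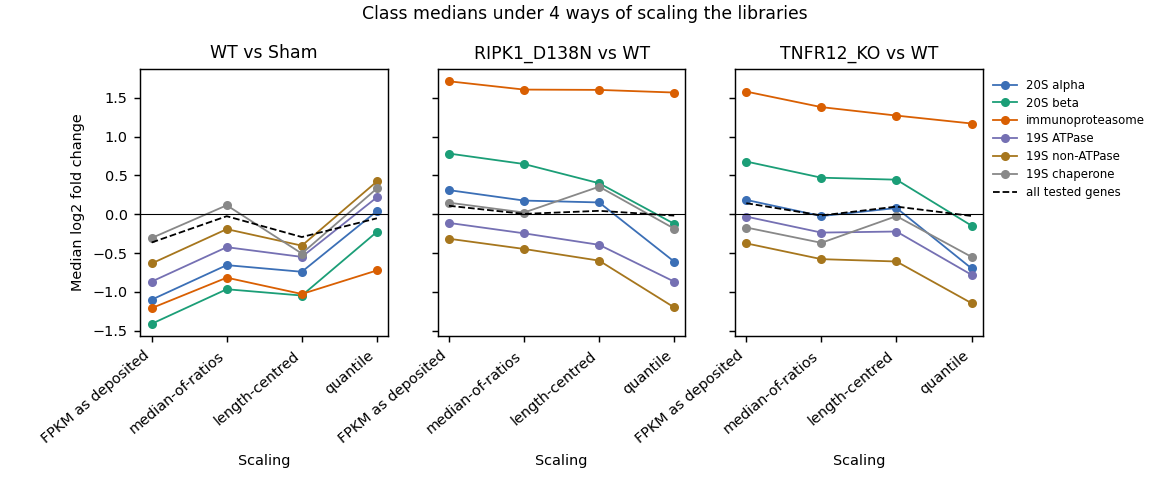
Median log2 fold change of each subunit class (lines) under 4 ways of scaling the libraries, for WT vs Sham, RIPK1_D138N vs WT and TNFR12_KO vs WT, with all tested genes dashed. In the mutant panels the immunoproteasome median stays above 1 and the non-ATPase median below 0 throughout, while the alpha and beta medians cross 0. In the WT vs Sham panel the immunoproteasome and beta medians stay below 0, and the other 4 classes cross 0.

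Some genes share sequence with others in ways that counting can mix. Besides Psmb5 with Gm3375 and Psmb9 with Tap1, Psmd13 shares 329 exonic bases with Sirt3 on the opposite strand, and Sirt3 itself was lower in WT than in Sham (-2.08) and higher in both mutants than in WT (2.2 and 2.16). Psmb7 shares 255 bases with Nek6, at 17.1 FPKM on average against 105 for Psmb7. Psma3 has a copy, Gm13835, identical over 665 aligned bases, at 9.89 FPKM against 103. The values of these members are uncertain to that degree.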

How the data were processed

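RNA of whole liver was sequenced in 12 libraries, 3 in each of 4 groups. The deposited table holds 1 FPKM value per gene and library, which the authors made with STAR 2.5.4a, Cufflinks 2.2.1 and Cuffdiff on mm10, per the submitters' processing notes. Its header names no unit, and FPKM follows from those tools and the values. Fragment counts, strand setting and filters are not given in the sources used here, so the depth behind each value is unknown.

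WT and Sham columns could be matched to their group but not to a sample, since their numbers fit different samples in titles and descriptions. The 11728 genes that reached 1 FPKM in 3 or more libraries were fitted as log2(FPKM + 1) with limma 3.58.1 (R 4.3.3), a mean-variance trend and 4 group means, with Benjamini-Hochberg adjustment within each of 6 comparisons. A fold change on this scale understates that of low genes. The procedure was tested on simulated data. Ratios within libraries were compared by exact permutation (Python 3.11.15). Values in every library are given for the 3 catalytic pairs and for the 3 called genes with the largest rise and the largest fall in each comparison. Pathway lists are given by their counts, and for some lists and comparisons with the largest called rise or fall. The genes and lists were chosen with earlier results of these data known. Ranks, class shares and the sums of Psmb5 with Gm3375 were chosen after the data were seen. Gene positions and transcript lengths are from GENCODE M21, and sequences from RefSeq GRCm38.p6.

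Same-numbered RIPK1_D138N and TNFR12_KO libraries did not deviate together (correlations of deviations -0.097, -0.202 and 0.057). Alternatives were 2 further scalings, centring by transcript length, pseudocounts of 0.1 and 0.5, no filter, a filter of 5 FPKM, leaving out 21 loci listed at 0 in some libraries, no trend, only the groups compared, and leaving out libraries.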

Additional observations from a re-analysis of the deposited data

How the results depend on the processing

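Scaling decided the level of the family but not the immunoproteasome calls in the mutants against WT. With quantile normalization the medians were 0.08 in WT vs Sham, -0.61 in RIPK1_D138N vs WT, -0.69 in TNFR12_KO vs WT, -0.53 in RIPK1_D138N vs Sham and -0.46 in TNFR12_KO vs Sham, with 7, 4, 4, 1 and 1 genes higher and 6, 20, 21, 16 and 16 lower. Psmb6 then read 0.04, -0.19 and -0.36 in the first 3 of these comparisons, and Psmb7 -0.12 and -0.15 in the mutants against WT. Among all 11728 tested genes 1169 were then higher and 1347 lower in RIPK1_D138N vs Sham, and 1122 and 1180 in TNFR12_KO vs Sham. With median-of-ratios scaling the medians were -0.54 in WT vs Sham, -0.10 in TNFR12_KO vs WT and -0.52 in each mutant against Sham, with 4 genes higher in WT vs Sham, 9 lower in TNFR12_KO vs WT, 17 lower in RIPK1_D138N vs Sham and 2 higher in TNFR12_KO vs Sham. Centring by length gave medians of -0.69 in WT vs Sham, -0.10 in RIPK1_D138N vs WT and -0.11 in TNFR12_KO vs WT, with 8 genes higher in each mutant against WT, 11 and 9 lower, and 1 higher in TNFR12_KO vs Sham. Among all 11719 genes so centred, 3238 were higher and 2486 lower in RIPK1_D138N vs WT. The same counts were 3300 and 2024 in TNFR12_KO vs WT, and 989 were higher in TNFR12_KO vs Sham. Fitting only the 2 groups compared also gave 1 higher there. The ratio of Psmb9 to Psmb6 in WT vs Sham, 0.01 as reported, was -0.16 with a pseudocount of 0.1 and -0.19 with none. The Psmb10 to Psmb7 ratio in RIPK1_D138N vs TNFR12_KO was -0.05 without the Xist-positive libraries, which left 1 RIPK1_D138N library. The cause of these changes was not tested. Leaving out 1 library gave ranges in WT vs Sham of -0.02 to 0.28 for Psmb10 to Psmb7 and -0.31 to 0.18 for Psmb9 to Psmb6, and in RIPK1_D138N vs TNFR12_KO of -0.31 to 0.06 for Psmb8 to Psmb5. It gave 0 to 1 genes higher in TNFR12_KO vs Sham and 3 to 6 lower in TNFR12_KO vs WT, where the median ran from -0.009 to 0.22. The shares of all genes in those fits are not given here, so these counts are not read further. Of the headline values recomputed under all alternatives, 415 stayed near the main value, 30 moved and 14 reversed. A count of calls could change somewhat and still be near the main value, so not every call was kept. With the replicate number as a block, RIPK1_D138N vs TNFR12_KO again had 0 genes higher and 0 lower, with a median of 0.009. No paired analysis was possible for comparisons with WT or Sham because their columns carry no number that names a sample. Depth limits low genes such as Psma8 and Psmb11, by an amount the FPKM values do not give.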
